A study of Neurospora crassa with 34 samples.

Results

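A group of 55 genes of Neurospora crassa, among 9730 genes counted, stood at least 4-fold higher in both OY329 libraries labelled with a deletion of set-7 than in either OY329 library without that label. The gene set-7 encodes the catalytic subunit of Polycomb repressive complex 2 (PRC2), which methylates lysine 27 of histone H3 (H3K27me2/3). In fungi and animals this mark covers genes that are transcribed little or not at all, and in N. crassa much of it lies in the subtelomeres, the stretches of chromosome next to the ends. Loss of PRC2 removes the mark throughout the genome, whereas only a part of the marked genes is transcribed as a result under laboratory growth.

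The genes were chosen by CPM (counts per 1000000 reads, the share of a gene in all reads that fell on genes in the library). A gene had to reach 2 CPM in both deletion libraries, and the lower of those 2 values had to be at least 4 times the higher OY329 value. Of all genes, 72 (0.74%) passed, and 17 of these were left out because the deposited table of regions with gained or lost H3K27me2/3 lists them, so that 55 genes (0.565% of the total) remained. The opposite rule, with OY329 at least 4 times above both deletion libraries, was met by 3 genes. Because these 4 libraries chose the genes, the differences between them are a description and carry no test, while the other strains took no part in the choice.

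OY329 (N5102) is a translocation strain in the Oak Ridge background in which a segment of the right arm of linkage group (LG) VI sits within LG III, and the deletion libraries come from strains N6086 and N6087, labelled as N5102 with set-7 deleted. The other 6 strains, ALS159, AR16, OY337, OY350, UK2-32 and UK3-41, have 2 libraries each and no set-7 deletion in their labels. They carry other chromosome rearrangements, an inversion of LG I in AR16 and translocations in the rest. The strains do not differ by rearrangement alone. In the paper's strain list UK3-41 also carries inl and OY337 carries al-2. AR16 is of mating type a there, while OY329 and the remaining strains of these 6 are of mating type A. The part of these alleles in the levels below was not tested. All 16 cultures were germinated conidia grown for 16 h at 32 °C in Vogel's medium with 1.5% sucrose, and poly(A) mRNA was sequenced. By the library labels every OY329 sample, deletion included, carries the OY329 rearrangement, which was not checked in N6086 and N6087. The wild type was not analysed here. The deletion libraries stand for 2 strain numbers and the others for replicate libraries of a strain number, so that the p-values below measure the spread between such libraries.

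Between 6435058 and 27994440 reads fell on genes in a library. OY329 replicate 1 was the deepest and OY329 replicate 3 the shallowest. Reads on set-7 itself were fewer in the libraries labelled with the deletion, 40 reads (3.66 CPM) in N6086 and 16 (1.90 CPM) in N6087, against 255 (9.11 CPM) and 49 (7.61 CPM) in OY329. The level was lowered and not 0, and the files do not show where on the gene the remaining reads lie. The 2 groups also differed in other ways. Reads on no gene made up 23.6% and 27.0% of the total in N6086 and N6087, and 10.0% and 26.3% in OY329 replicates 1 and 3. Both deletion libraries and OY329 replicate 1 had 8-base index sequences in their labels and OY329 replicate 3 had 6. The mating-type gene mat A-1 had 0 reads in both deletion libraries, against 38 and 18 in OY329, and the mating type of N6086 and N6087 is not given in the sources used here. The part of these differences in the levels of the 55 genes was not tested. The median log2 difference of all tested genes between the groups was 0.23 by the scale used for the choice and 0.02 after edgeR's TMM scaling, under which 43 of the 55 genes still met the rule and no other gene did.

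The levels reached in the deletion libraries were mostly low. The lower of the 2 values ran from 2.01 to 349 CPM with a median of 9.05, and 28 genes stayed under 10 CPM while 4 exceeded 100. Over the lower deletion library and the higher OY329 library, with a library under 3 reads set to 3 reads, the median ratio was 6.06, and 12 genes reached a ratio of 10. In an edgeR quasi-likelihood fit across 8223 genes in all 16 libraries, 4.84% of the tested genes passed an adjusted p of 0.05 as higher and 2.7% as lower, and 53 of the 55 chosen genes were among the higher, which the rule itself brings about. The plot of the values that chose the genes sets them against all others.

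**Figure D1:**
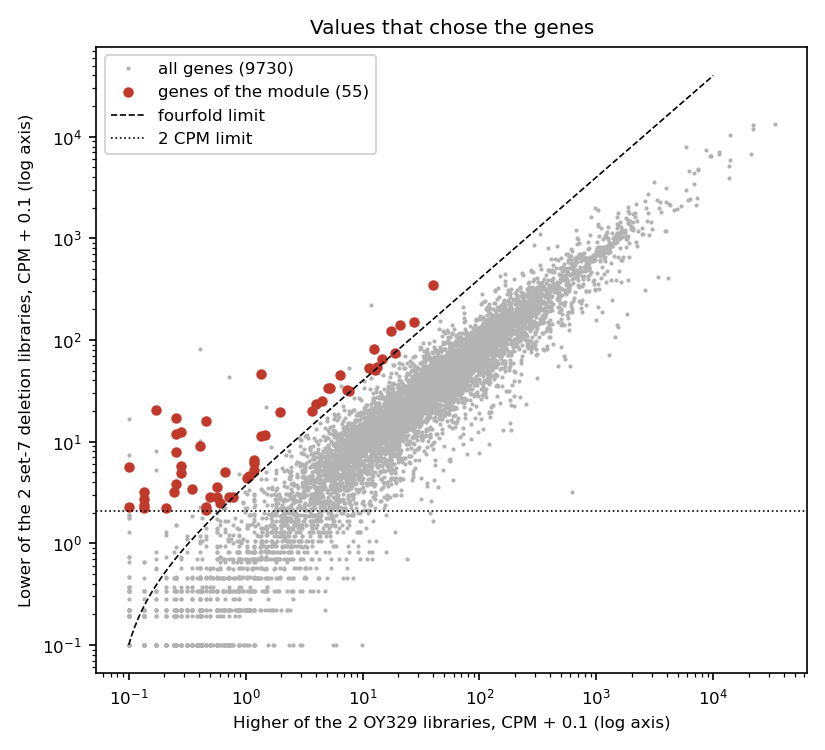
Each point is a gene, with the higher of its 2 OY329 values on the horizontal axis and the lower of its 2 set-7 deletion values on the vertical axis, both as CPM + 0.1 on log axes. The 55 genes (red) lie above the 4-fold line and the 2 CPM line, most of them at low expression, and the grey points above both lines are the 17 genes left out through the gain and loss table.

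The choice depended on all 4 libraries. Genes that were 4-fold higher in a single pair of a deletion and an OY329 library numbered from 178 to 328, and of those only 20.1% to 41.6% were also 4-fold higher in the remaining pair. Leaving out N6086 or N6087 raised the number of genes from 55 to 96 or 145, and leaving out OY329 replicate 1 or 3 raised it to 121 or 113. At the 4-fold limit, NCU10567, NCU09178 and NCU09484 lay just inside with ratios of 4.02, 4.04 and 4.04, and NCU04630, NCU04912 and NCU07840 lay just outside with 4.00, 3.90 and 3.89. The first of these outside genes fell short by the third decimal.

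The gene with the largest ratio, NCU07249, had 36.4 and 20.4 CPM in N6086 and N6087 and 0.0714 and 0 CPM in OY329 replicates 1 and 3. It stayed at or under 0.467 CPM in all 12 libraries of the other strains. The 569 reads in the deletion libraries against 2 in OY329 gave a ratio of 507 with an exact 95% interval from 140 to 4193, which covers counting error only. NCU05173 behaved alike, with 12.3 and 15.1 CPM in the deletion libraries, 0.179 and 0 CPM in OY329 and at most 0.357 CPM elsewhere. NCU08521 and NCU09966 had no read in either OY329 library. Against a floor of 3 reads per OY329 library, the lower deletion library was at least 11.7-fold higher for NCU08521, at 5.94 and 5.48 CPM in N6086 and N6087. It was at least 4.71-fold higher for NCU09966, at 2.19 and 2.26 CPM, a gene chosen for mention after its values were seen.

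At the other extreme, NCU08223 had the highest level of the group, 361 and 349 CPM in N6086 and N6087 against 19.5 and 39.8 CPM in OY329. This gene was well transcribed in several other strains, from 2.33 CPM in AR16 replicate 2 to 86.8 CPM in OY350 replicate 2, and no library of them came near the deletion libraries. NCU02175 (141 and 252 CPM), NCU01504 (152 and 202 CPM) and NCU04058 (122 and 159 CPM) were the other genes above 100 CPM in both deletion libraries. Their OY329 values were 20.8 and 15.5, 27.5 and 13.4, and 17.4 and 13.5 CPM. These 3 genes differ from NCU08223 in the other strains, where every library had more than OY329 did.

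Of the 55 genes, 5 carry a symbol in the RefSeq gene table (9.09%, beside 11.5% of all matched genes). stk-36 (NCU05658), a serine/threonine protein kinase gene, had 11.2 and 12.97 CPM in the deletion libraries and 0.714 and 1.24 CPM in OY329. nst-7 (NCU07624), a member of the sirtuin family of NAD-dependent deacetylases, had 33.3 and 35.9 CPM against 5.22 and 5.13 CPM. nst-7 was close to even within each pair of libraries, whereas the OY329 values of stk-36 were further apart. gh10-2 (NCU08189), which encodes a xylanase of glycoside hydrolase family GH10, reached 7.22 and 4.28 CPM against 0.857 and 0.932 CPM. It overlaps its neighbour NCU08190, so that reads of the pair cannot be told apart where the counting took no account of strand.

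The remaining symbols belong to phosphate transport. pho-4 (NCU09564) and pho-5 (NCU08325) encode high-affinity phosphate permeases, which N. crassa makes when phosphate is scarce. pho-4 had 4.94 and 11.9 CPM in N6086 and N6087 and 0.572 and 0.311 CPM in OY329, and it overlaps NCU12035. pho-5 had 2.19 and 14.9 CPM against 0.357 and 0.155 CPM, a 6.78-fold distance between the deletion libraries. Neither level was particular to the deletion: in ALS159, which keeps set-7 by its label, pho-4 reached 205 and 132 CPM and pho-5 14.8 and 10.4 CPM. Of the other genes of phosphate control, looked up after these values were seen, the repressible acid phosphatase gene pho-3 had 81.2 and 51.8 CPM in the deletion libraries, between the 57.2 and 150 CPM of OY329 or just under them. Of the regulatory genes, nuc-1 had 110 and 74.2 CPM against 66.6 and 109 CPM, preg 57.1 and 45.6 CPM against 62.2 and 52.5 CPM, and nuc-2 156 and 97.1 CPM against 161 and 196 CPM, with both deletion values of nuc-2 below both of OY329. pho-2, the repressible alkaline phosphatase gene, had 14.1 and 10.5 CPM, within the 9.14 to 17.9 CPM of OY329.

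Agreement over the 55 genes is a description, since the rule asked for a high value in both N6086 and N6087. The median fold between them was 1.33 over the 55 genes and 1.30 over all 7379 genes at 2 CPM or more in both, and 10 of the 55 (18.2%) were more than 2-fold apart, beside 13.1% of those genes. The widest gaps were in pho-5, higher in N6087, and in NCU02238, which had 22.8 CPM in N6086 and 2.74 CPM in N6087.

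In the other 6 strains the genes fell into groups by whether any library reached the lower deletion library. For 35 genes (63.6%) none of the 12 libraries did, where 5.66% of all genes at 2 CPM or more in both deletion libraries showed this. That share is not independent of the choice, since genes picked for a high value in these deletion libraries tend to stand high against any other. A further 10 genes were reached in UK3-41 alone, and 10 were reached in at least 1 strain besides it. Transcripts were scarce in general, with a median of the 12 libraries under 1 CPM for 27 genes and every library under 1 CPM for 12. The map of the 55 genes over the 16 libraries shows these groups.

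**Figure D2:**
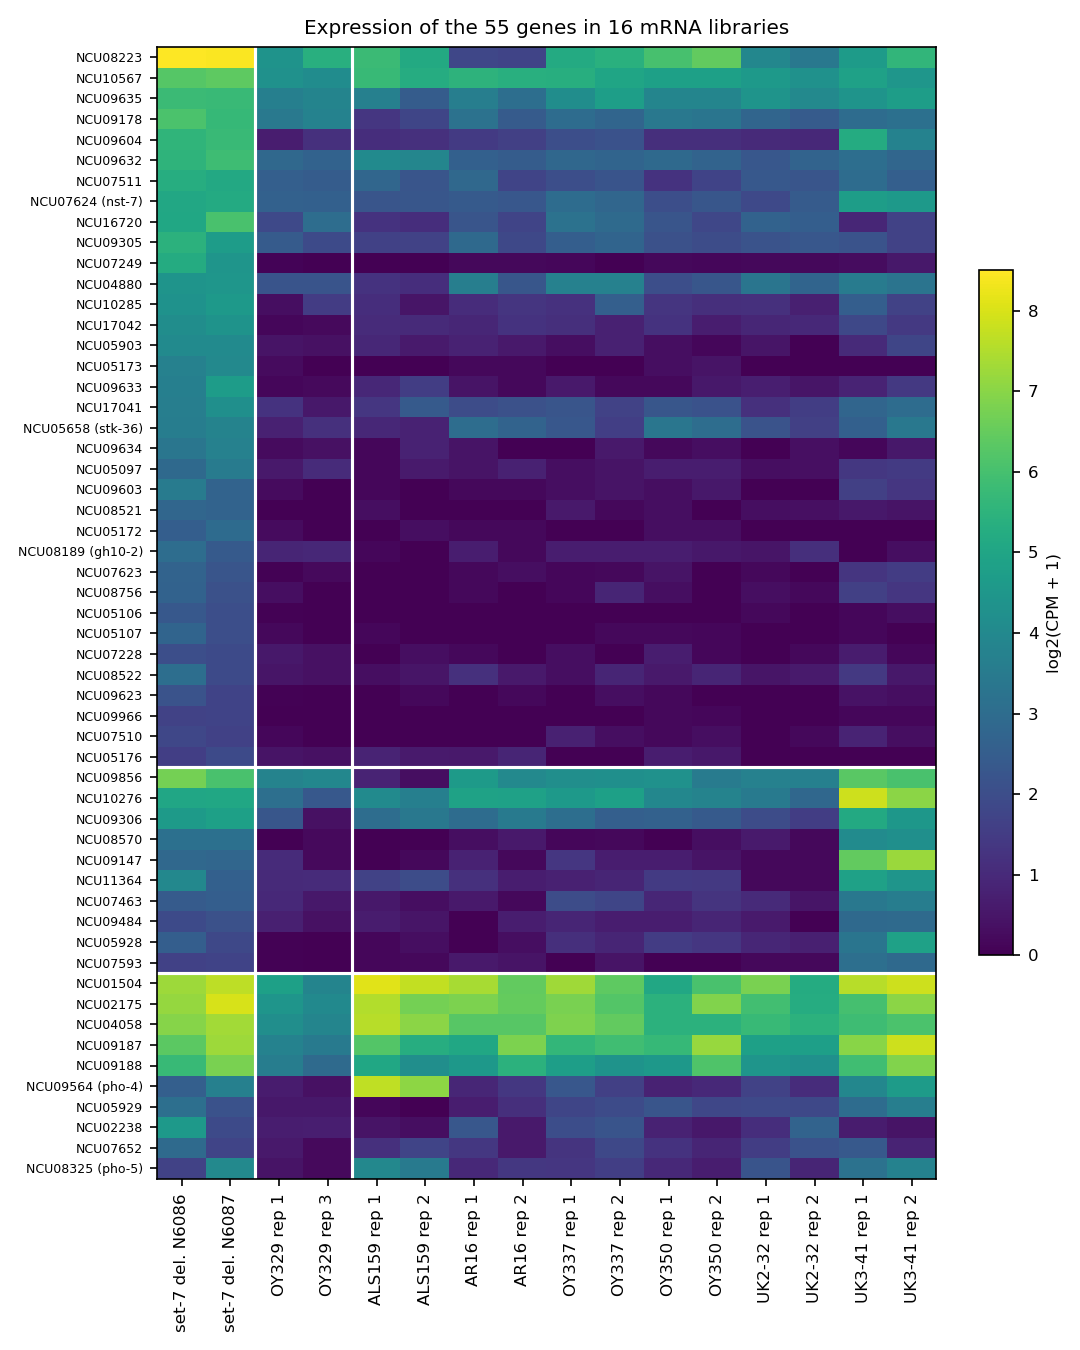
Colour gives log2(CPM + 1) for the 55 genes (rows) in the 16 libraries (columns), with the deletion and OY329 libraries on the left. White lines part the 35 genes that no other strain reached (top), the 10 reached in UK3-41 alone (middle) and the 10 reached in a further strain (bottom), and within each the genes are sorted by the lower deletion library.

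The summed level of the 55 genes was 1832 and 2121 CPM in the deletion libraries and 214 and 202 CPM in OY329, which was the lowest strain of all. The rule asked for high deletion and low OY329 values, so the places of these libraries are in part brought about by the choice. UK3-41 came nearest the deletion libraries with 1239 and 1475 CPM, followed by ALS159 with 1165 and 791 CPM, and the remaining 8 libraries held from 284 to 680 CPM. The sum is carried by a few genes, and the median gene gives another order. It stood at 11.5 and 12.97 CPM in the deletion libraries, at 5.86 and 5.96 CPM in UK3-41 and from 0.311 to 1.96 CPM in all other libraries, OY329 and ALS159 included.

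For 9 of the 55 genes (16.4%) all 12 other libraries lay above the higher OY329 library, where 13.6% of all genes did. These were NCU01504, NCU02175, NCU04058, NCU09187, NCU09188, NCU10567, NCU17042, pho-4 and pho-5. The share is near that of all genes, and a low OY329 value was part of the choice. NCU09187, for example, had 12.5 and 10.3 CPM in OY329, from 26.8 to 229 CPM in the other 12 libraries, and 81.9 and 153 CPM in the deletion libraries. NCU17042 had 0.107 and 0.155 CPM in OY329 and 0.595 to 2.59 CPM in the 12 others, well below the 16.8 and 19.5 CPM of the deletion libraries. The median of the 12 libraries was above the higher OY329 value in 32 genes and at least 2 times that value in 18. Shares over all genes are not given for these counts, so they are a description only.

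The 6 other strains were compared with each other in a separate edgeR quasi-likelihood fit of their 12 libraries, each strain against the mean of the remaining 5, with p-values adjusted over the 8140 genes tested. Of the 55 genes, 41 had enough reads for this fit and 14 did not, namely NCU05106, NCU05107, NCU05172, NCU05173, NCU05176, NCU05903, NCU07228, NCU07249, NCU07510, NCU08521, NCU09623, NCU09634, NCU09966 and gh10-2. The highest value of these 14 in the 12 libraries was 2.45 CPM. At least 1 strain differed in 35 of the 41 (85.4%), close to the 87.9% of all tested genes, and 6 passed in none.

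**Figure D3:**
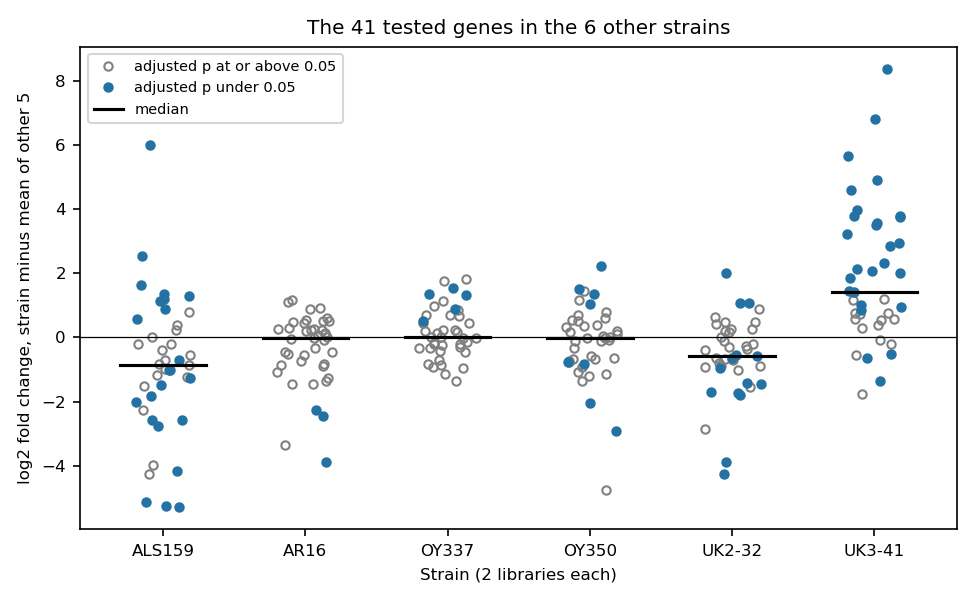
Each circle is the fitted log2 fold change of a gene in a strain against the mean of the other 5, for the 41 genes tested in 2 libraries per strain, and filled circles passed an adjusted p of 0.05. Horizontal bars are medians: the UK3-41 median lies at 1.42, that of ALS159 at -0.87 and that of UK2-32 at -0.59, and the other 3 lie near 0. The circles and medians include genes that passed the filter on low counts only through UK3-41. Over the 31 genes that pass without it, the UK3-41 median is 0.95.

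UK3-41 was the strain in which most of the genes were higher. Of the 41, 24 were higher (58.5%, beside 32.7% of all tested genes) and 3 lower (7.32%, beside 26.1%), with a median log2 change of 1.42 against 0.07 over all genes. Because 10 of the 41 had passed the filter on low counts only through UK3-41, the 31 that pass without it are the fairer count. Of these 31, 16 were higher (51.6%), 3 lower, and their median was 0.95. The share over all genes that pass without UK3-41 is not given. The 32.7% covers all 8140 tested genes and is no like measure for the 31, whose count is a description. Among genes that pass the filter without UK3-41, nst-7 rose to 25.5 and 22.9 CPM from 2.69 to 7.11 CPM in the others (log2 change 2.31 ± 0.16, edgeR adjusted p = 3.2e-06), short of its level in the deletion libraries. The widest gaps, those of NCU09147 and NCU08570, are given as levels only, since both genes entered the fit through UK3-41 alone. NCU09147 had 87.8 and 149 CPM in UK3-41, at most 1.57 CPM in the other 10 libraries, and 6.40 and 6.07 CPM in the deletion libraries. NCU08570 had 16.1 and 18.0 CPM in UK3-41, at most 0.513 CPM in the other 10, and 7.77 and 7.86 CPM in the deletion libraries. Both were thus higher in UK3-41 than with the deletion.

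The genes lower in UK3-41 were NCU16720, NCU10567 and NCU04058. NCU16720 had 0.901 and 2.22 CPM there and from 1.16 to 8.19 CPM elsewhere (log2 change -1.35 ± 0.36, edgeR adjusted p = 0.0091), and this call was lost without UK3-41 replicate 1 (adjusted p = 0.12). NCU10567 had 28.4 and 20.9 CPM (log2 change -0.64 ± 0.17, edgeR adjusted p = 0.0086), and its call was lost without UK3-41 replicate 2 (adjusted p = 0.11). The count of lower genes fell to 1 without UK3-41 replicate 1 and rose to 5 without AR16 replicate 2, whereas the count of higher genes stayed between 20 and 26 whichever library was left out. These counts include the genes that passed the filter on low counts only through UK3-41. The levels of marker genes stand beside these results. The summed level of 7 mating-type and pheromone genes was 115 to 166 CPM in UK3-41, 3.02 to 17.6 CPM in the 10 other libraries and 10.6 to 30.9 CPM in the deletion libraries. In UK3-41 most of it came from ccg-4 (90.5 and 45.5 CPM) and mat A-1 (33.1 and 32.3 CPM). By contrast, pre-2 had 0.113 and 0.467 CPM there, within the 0 to 1.67 CPM of the 10 others. In the deletion libraries most of it came from mfa-1 (26.7 and 8.09 CPM), and mat A-1 and ccg-4 had 0 reads. The 6 conidiation genes summed to 6413 and 19133 CPM in UK3-41, to 174 to 9024 CPM in the 10 others and to 844 and 1532 CPM in the deletion libraries, so that UK3-41 overlapped the others here. The sum was carried by the hydrophobin gene eas (6060 and 18493 CPM in UK3-41), while con-8 was at 28.3 and 107 CPM there and at 1098 and 1221 CPM in UK2-32. Their part in the levels of the 55 genes was not tested. set-7 itself was at 33.9 and 35.4 CPM in UK3-41, above every other library.

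ALS159 had 9 of the 41 genes higher (22.0%, beside 27.8% of all tested genes) and 14 lower (34.1%, beside 24.7%), with a median log2 change of -0.87. For every strain but UK3-41, the mean of the other 5 includes UK3-41. Genes high in UK3-41 can therefore be called lower in another strain. The genes lower in ALS159 include NCU08570 and NCU09147, which entered the fit through UK3-41 alone. How far the lower counts rest on UK3-41 was not tested. The largest rise was that of pho-4, from at most 24.3 CPM in the other 10 libraries to 205 and 132 CPM (log2 change 6.01 ± 0.23, adjusted p = 9.5e-08 by edgeR), followed by pho-5 (2.52 ± 0.33, adjusted p = 0.00029). UK3-41, at 14.3 and 24.3 CPM of pho-4, came next after ALS159. The largest falls were in NCU09856, with 0.814 and 0.258 CPM in ALS159 and 10.5 to 79.0 CPM in the others (log2 change -5.29 ± 0.43, adjusted p = 2.1e-05 by edgeR), and in NCU05929, with 0.116 and 0 CPM against 0.620 to 11.6 CPM (-5.26 ± 0.68, adjusted p = 0.00029 by edgeR). Without ALS159 replicate 1 the counts fell to 5 higher and 7 lower, and without ALS159 replicate 2 to 8 lower.

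UK2-32 had 3 of the 41 genes higher (7.32%, beside 24.3% of all tested genes) and 11 lower (26.8%, beside 21.6%). The lower count again rests on a mean that includes UK3-41. For example, nst-7 was called lower in UK2-32 (edgeR adjusted p = 0.033) at a mean of 3.53 CPM. Its means were 3.45 to 6.55 CPM in OY350, ALS159, AR16 and OY337 and 24.2 CPM in UK3-41. NCU11364 had the lowest adjusted p of the falls, with 0.128 and 0.137 CPM against 0.613 to 27.8 CPM in the others (log2 change -3.89 ± 0.52, edgeR adjusted p = 0.00047). Both UK2-32 values were under the level of 3 reads, 0.385 and 0.410 CPM. The upper end was that of UK3-41, and the remaining strains held at most 2.97 CPM. NCU09603 had no read in either UK2-32 library, but its level was at most 0.476 CPM in the strains other than UK3-41 and its call (edgeR adjusted p = 0.038) was lost in 13 of 15 alternative fits. Of the rises, NCU02238 (1.15 and 5.60 CPM, log2 change 2.00 ± 0.64, edgeR adjusted p = 0.029) rested on replicate 2 and had an adjusted p of 0.71 without it. NCU05929 (2.69 and 2.60 CPM, log2 change 1.08 ± 0.37, edgeR adjusted p = 0.037) lost its call without either UK2-32 library, without either OY337 library or without ALS159 replicate 2. The counts of higher and lower genes were 1 and 6 without UK2-32 replicate 1, and 0 and 4 without UK2-32 replicate 2. Leaving out AR16 replicate 1 gave 5 higher, and 6 or 7 were lower without OY337 replicate 1 or OY350 replicate 2.

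OY350 had 4 of the 41 genes higher (9.76%, beside 9.89% of all tested genes) and 4 lower (9.76%, beside 6.61%), shares close to those of other genes. NCU08223 rose to 63.6 and 86.8 CPM from 2.33 to 54.9 CPM in the others (log2 change 2.23 ± 0.22, edgeR adjusted p = 0.00033). stk-36 rose to 9.16 and 7.14 CPM (1.50 ± 0.30, edgeR adjusted p = 0.011), a call that was lost without OY350 replicate 1 (adjusted p = 0.11). Both phosphate permease genes fell, pho-4 to 0.742 and 0.952 CPM (log2 change -2.93 ± 0.47, edgeR adjusted p = 0.0042) and pho-5 to 0.990 and 0.595 CPM (-2.05 ± 0.54, edgeR adjusted p = 0.031). The fall of pho-5 was not past the threshold without either OY350 library, ALS159 replicate 1 or OY337 replicate 2. The counts were 1 higher and 1 lower without OY350 replicate 1, and 2 higher and 1 lower without replicate 2. There were 2 lower without ALS159 replicate 1 or OY337 replicate 2 and 7 lower without AR16 replicate 2.

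In AR16 none of the 41 genes was higher in the edgeR fit (6.6% of all tested genes were) and 3 were lower (7.32%, beside 4.03%). Before adjustment the numbers at 0.05 were 3 and 8, and DESeq2 gave 1 higher. Between 1 and 3 were higher without AR16 replicate 2, ALS159 replicate 1, either OY350 library or UK3-41 replicate 1. The genes that fell were NCU08223, NCU07463 and pho-4. NCU08223, at 2.48 and 2.33 CPM, was below the 9.70 to 86.8 CPM of the 10 other libraries (log2 change -3.88 ± 0.38, edgeR adjusted p = 0.00034), and pho-4 was at 0.868 and 1.59 CPM (-2.45 ± 0.44, edgeR adjusted p = 0.0083). NCU08223 thus had its lowest level in AR16 and its highest in OY350 among the 6 strains.

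In OY337, 5 of the 41 genes were higher (12.2%, beside 15% of all tested genes) and none lower by edgeR or DESeq2 (11.7% of all tested genes were in edgeR). Before adjustment, 11 were higher and 2 lower at 0.05. NCU16720 had 8.19 and 6.61 CPM there and at most 5.39 CPM in the others (log2 change 1.53 ± 0.27, edgeR adjusted p = 0.0046). NCU07463 had 2.89 and 2.45 CPM (1.36 ± 0.35, edgeR adjusted p = 0.019), less than the 9.46 and 11.2 CPM of UK3-41. Leaving out OY337 replicate 1 left 0 higher, leaving out replicate 2 left 1, and leaving out AR16 replicate 1 gave 8, while leaving out AR16 replicate 2 gave 1 lower. Both calls were lost without OY337 replicate 1, with adjusted p of 0.075 and 0.17, and that of NCU07463 also without replicate 2 (adjusted p = 0.092).

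The levels that chose the genes do not involve position, but the exclusion of listed genes does, since those often lie near ends. Linkage groups, ends and neighbours are given by the RefSeq order and not by that of OY329. In OY329 a segment of the right arm of LG VI sits within LG III, so places on these linkage groups can differ. By the gene order of the RefSeq table, 20 of the 55 (36.4%) were among the 50 genes next to an end of a linkage group, where 7.19% of all genes and 6.33% of unlisted genes are. Within 25 genes of an end there were 17 (30.9%, beside 3.60%), and within 100 genes 31 (56.4%, beside 14.4%). The median distance was 84 genes, against 348 for all genes. Of 2517 unlisted genes at 2 to 20 CPM in the lower deletion library, 7.67% were within 50 genes of an end. Of the 17 genes left out through the gain and loss table, 13 were within 50 genes of an end, and with them kept the share was 33 of 72 (45.8%). Leaving out a library changed the genes and lowered the share, to 20.7% of 145 genes without N6087 and to between 26.0% and 28.3% without any of the others.

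By level in the other strains the counts were as follows, with no test of their difference. Among the 35 genes that no other strain reached, 16 were within 50 genes of an end, among the 10 reached in UK3-41 alone 4 were, and among the 10 reached in a further strain none was. Linkage group III held 15 of the 55 genes (27.3%, beside 12.9% of all genes) and LG IV held 13 (23.6%, beside 15.3%), while LG I, with 24.1% of all genes, held 2 (3.64%).

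The outermost genes are shown in the plot of the 3 genes at each of the 14 ends. Of these 42 genes, 8 (19.0%) belonged to the 55, which make up 0.565% of all ranked genes, and they lay at 4 ends. A further 11 were in the gain and loss table, 3 were under 2 CPM in a deletion library, and 20 were transcribed without meeting the rule. At the first genes of LG II all 3 belonged, in order from the end NCU09634, NCU09633 and NCU09632. At the first genes of LG IV the outermost pair did, NCU10285 and NCU09635, and NCU09636 next to them had 5.21 and 8.93 CPM against 0.321 and 1.71 CPM, a ratio of 3.05. On LG VII they were NCU09306 and NCU09305 at the first end, with NCU11424 between them at 449 and 287 CPM against 178 and 236 CPM, and NCU05903 as the outermost gene of the other end.

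**Figure D4:**
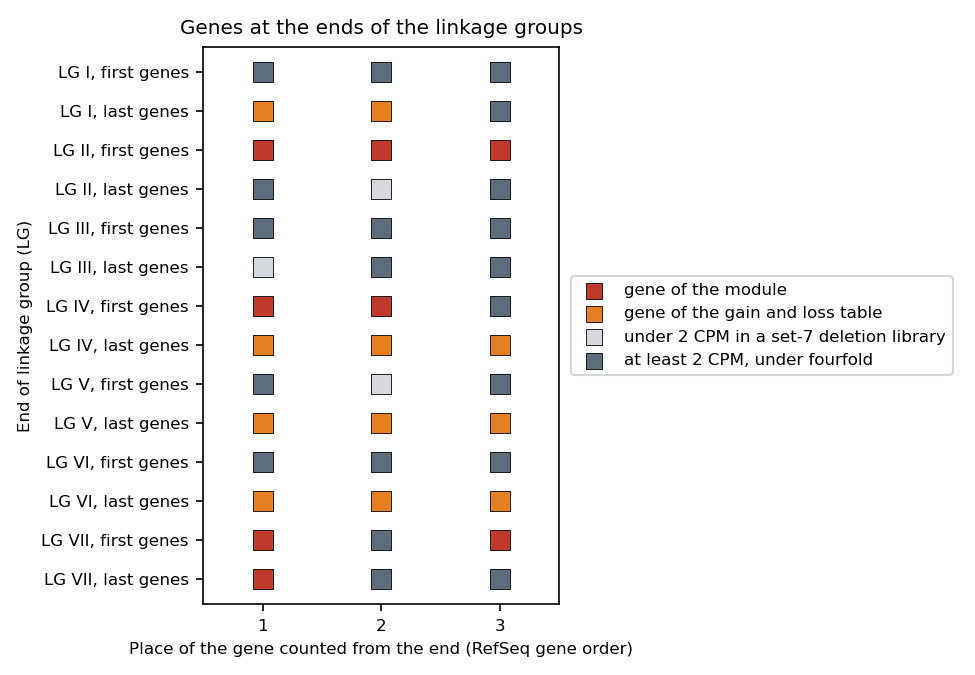
Squares are the 3 outermost genes at each of the 14 ends of the 7 linkage groups, numbered from the end by RefSeq gene order. Red squares are the 8 genes of the group, at 4 ends, orange squares the 11 genes listed in the gain and loss table, light squares the 3 genes under 2 CPM in a deletion library, and dark squares the 20 others.

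NCU05903 had 15.9 CPM in both N6086 and N6087, 0.357 and 0.311 CPM in OY329, and at most 2.45 CPM in the other strains. NCU09306 had 23.6 and 27.4 CPM against 3.89 and 0.311 CPM, and was one of the genes reached in UK3-41, at 35.2 and 21.7 CPM (log2 change 2.13 ± 0.21 by edgeR, adjusted p = 3.5e-05). NCU10285 had 19.3 and 23.1 CPM against 0.250 and 1.86 CPM. NCU09635, beside it, was transcribed everywhere, with 54.9 and 53.6 CPM in the deletion libraries, 11.6 and 13.2 CPM in OY329 and 4.51 to 26.3 CPM elsewhere.

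Neighbours among the 55 formed runs. By consecutive identifiers there were 11 runs with 24 genes (43.6%), and by RefSeq gene order also 11 with 26 genes (47.3%), the longest of 4. No share in runs is given for other genes of like level, so these shares are a description. Without N6087 the share in runs by gene order fell to 29.0% of 145 genes. The identifiers NCU09632 to NCU09635 are consecutive, but NCU09635 lies on LG IV and the others on LG II, so that their run is 3 genes at the end of LG II. NCU09634 had 9.05 and 12.3 CPM in the deletion libraries against 0.179 and 0.311 CPM in OY329. NCU09633 had 11.8 and 25.2 CPM against 0.107 and 0.155 CPM. NCU09632 had 45.2 and 57.2 CPM against 6.29 and 5.44 CPM, and it overlaps NCU09633. The next gene inward, NCU09631, had 15.8 and 6.19 CPM against 4.54 and 2.33 CPM, a ratio of 1.36, and the one after, NCU09630, had a ratio of 0.51. The 4-fold limit was thus passed in the outermost 3 genes and not in the next 2. In ALS159 NCU09632 reached 15.6 and 13.8 CPM, above all other strains (log2 change 1.35 ± 0.15, edgeR adjusted p = 0.00015).

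A run of 4 on LG V, from 109 to 112 genes from the end, comprised NCU09966, NCU07249, NCU17041 and NCU17042. NCU17041 had 11.5 and 18.0 CPM in N6086 and N6087, 1.36 and 0.466 CPM in OY329 and up to 7.01 CPM in the 12 others, so that the run holds genes under 1 CPM in all 12 libraries beside a gene at 1 CPM or more in each of them. On the side nearer the end NCU07247 had 27.9 and 14.6 CPM against 13.6 and 8.24 CPM, a ratio of 1.08. On the far side NCU09965 had under 1 CPM in these 4 libraries.

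**Figure D5:**
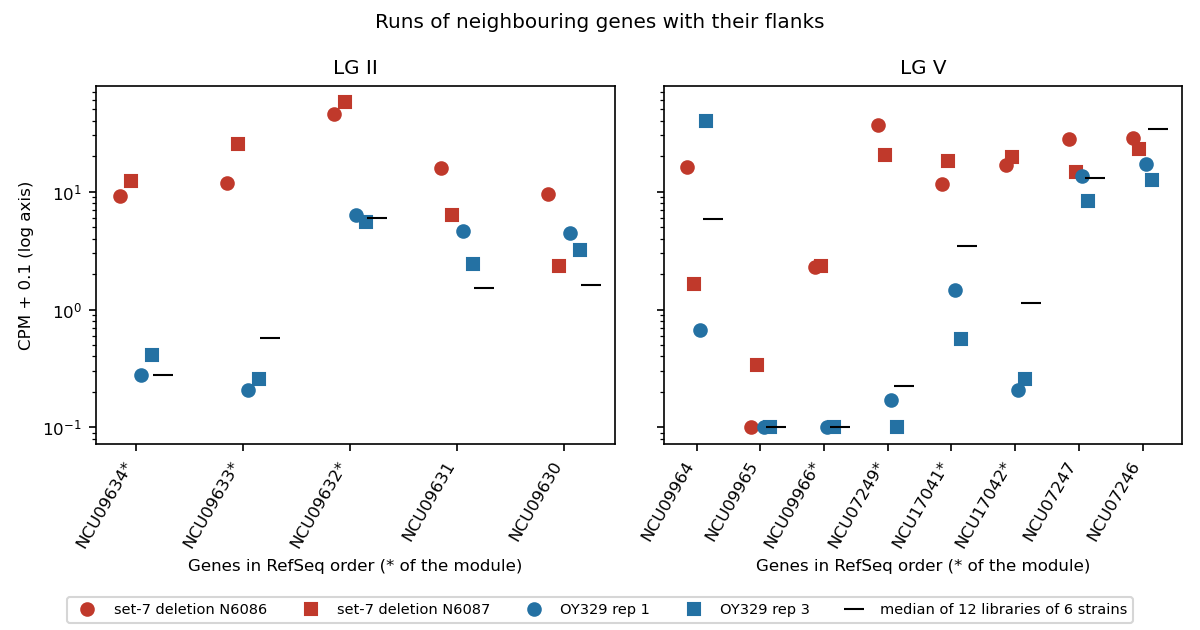
CPM + 0.1 on a log axis for the run of 3 genes at the end of LG II (left) and the run of 4 genes on LG V (right), each with the 2 neighbouring genes that exist on either side, in RefSeq order and with the genes of the runs starred. In the starred genes both deletion libraries (red) lie above both OY329 libraries (blue), and in the flanking genes they lie closer or overlap.

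On LG III, NCU07511, NCU07510 and gh10-2 followed each other. NCU07511 had 38.0 and 33.9 CPM against 4.93 and 4.51 CPM in OY329, whereas NCU07510 had 2.47 and 2.14 CPM against 0.107 and 0. NCU09187 and NCU09188, a pair on the same linkage group, were the most abundant neighbours, NCU09188 with 52.3 and 111 CPM against 11.2 and 6.68 CPM, and both were higher in N6087 than in N6086 and were reached in several strains. In NCU08521 and NCU08522, a further pair of LG III, the second gene had 7.50 and 2.74 CPM against 0.393 and 0.311 CPM.

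On LG IV the pair NCU05172 and NCU05173 lay between genes of the gain and loss table, with NCU05176 on the far side of the listed NCU05175. NCU05172 had 4.85 and 6.78 CPM against 0.179 and 0 CPM, and NCU05176 had 2.01 and 2.74 CPM against 0.357 and 0.311 CPM. In all, 5 of the 55 genes lay within 5 genes of a listed gene (9.09%, beside 3.85% of all unlisted genes). A further pair of LG IV joined NCU07623, at 5.58 and 3.69 CPM against 0.0357 and 0.155 CPM, to nst-7.

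NCU09604 and NCU09603 lay 24 and 25 genes from the end of LG II. NCU09604 had 46.5 and 52.6 CPM against 0.607 and 1.24 CPM and rose in UK3-41, to 36.6 and 12.7 CPM (log2 change 3.74 ± 0.28 by edgeR, adjusted p = 6.3e-06). NCU09603 had 10.7 and 5.59 CPM against 0.179 and 0 CPM. The gene beyond it, NCU09602, was among the abundant transcripts, with 1052 and 2123 CPM against 1539 and 1761 CPM. On LG VI, NCU05106 (4.02 and 3.09 CPM) and NCU05107 (5.67 and 3.09 CPM) were all but silent elsewhere, at most 0.234 CPM in any other strain. NCU05928 (4.75 and 2.62 CPM) and NCU05929 (7.59 and 3.45 CPM), also of LG VI, were both higher in UK3-41, NCU05928 at 8.90 and 27.9 CPM and NCU05929 at 6.99 and 11.6 CPM.

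The genes beside the runs failed the rule by definition, so their lower ratios are a description. Of 36 genes within 2 places of a run by gene order that were neither chosen nor listed, 20 had both deletion libraries above both OY329 libraries, where 29.7% of all genes did. Their median ratio was 1.36 over the 29 with reads in OY329, and 7 reached a ratio of 2.

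The genes of the group not yet described, given here after their values were seen, lay outside the runs. NCU08756, NCU09623 and NCU09484 were 7, 9 and 12 genes from an end. NCU08756 had 5.39 and 3.33 CPM in N6086 and N6087 against 0.250 and 0 CPM in OY329, and NCU09623 had 3.47 and 2.26 CPM against 0.0357 and 0 CPM. NCU10276 had 31.5 and 32.4 CPM against 7.61 and 4.04 CPM, and it was far higher in UK3-41, at 228 and 129 CPM, than with the deletion. NCU09178 (67.1 and 50.8 CPM against 9.75 and 12.6 CPM) and NCU04880 (20.1 and 21.1 CPM against 3.61 and 3.57 CPM) were above all 12 libraries of the other strains. The rest were low: NCU05097 had 6.49 and 10.7 CPM against 0.500 and 1.09 CPM, and NCU07228, NCU07593 and NCU07652 had between 2.10 and 6.58 CPM in the deletion libraries and at most 0.500 CPM in OY329.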

How the data were processed

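Poly(A) mRNA-seq counts of 16 libraries were used. The authors deposited raw read counts for each gene, and the 5 summary rows of reads on no gene were left out. The submitters' processing notes name TopHat, SAMtools, HTSeq and DESeq for the series. Versions, annotation release, build and strand setting of the mRNA counts are not given in the sources used here, so no coordinates are given. From the deposited table of gained and lost H3K27me2/3 regions only the gene column was used. Its fold-change columns, the authors' own comparisons, were not used, and 1 column of its counts, labelled by strain, stayed unused. RefSeq (assembly NC12) gave symbols and gene order for 9729 of 9730 identifiers. Function groups by product name and sequences were not analysed here.

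Membership used CPM without scaling. Tests were edgeR 4.0.16 quasi-likelihood fits (R 4.3.3, TMM, filterByExpr, Benjamini-Hochberg over all tested genes), checked on simulated counts. DESeq2 1.42.0, other count filters, other limits of the rule, the replicate block and left-out libraries were alternatives. Named genes were set-7, the 8 largest ratios, the 6 highest levels, genes in runs, up to 2 rises and 2 falls per strain, genes with symbols and those nearest the limit. Other genes were named after their values were seen. The genes and lists were chosen with earlier results of these data known. Intervals cover counting error only.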

Additional observations from a re-analysis of the deposited data

How the results depend on the processing

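No fold change of a named gene reversed its direction in any alternative that tested it. Counts and shares were scored only for size and not for direction: 195 alternatives stayed near the main value and 59 moved. The 55 genes became 87 at 3-fold and 25 at 8-fold, 34 at 5 CPM, 113 or 121 with OY329 replicate 1 or 3 alone as reference, and 96 to 145 with a library left out. In the deletion comparison DESeq2 called 605 genes higher and 418 lower, and the 4 libraries of the groups alone 17 and 0, of which 10 were among the 55. A minimum of 10 counts in every library left 14 of the 55 called. Without single libraries the ranges were 201 to 567 genes higher, 166 to 380 lower, and 35 to 51 of the 55 called. With a library left out, the share near ends was 20.7% to 28.3% and the share in runs 29.0% to 35.4%. At other limits, with listed genes kept or with TMM, these shares were 31.0% to 45.8% and 33.3% to 53.5%. All these alternatives for the shares were added after seeing the data.

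Members higher in AR16 numbered 1 by DESeq2 and 2 without a count filter. With at least 10 counts in every library, fewer genes could be tested: 5 were higher and 4 lower in ALS159, 1 lower in AR16, 2 higher in OY337, 2 higher in OY350, 0 higher and 7 lower in UK2-32 and 6 higher in UK3-41. Without single libraries the ranges, higher and lower, were 5 to 10 and 7 to 14 in ALS159, 0 to 3 and 2 to 4 in AR16, 0 to 8 and 0 to 1 in OY337, 1 to 5 and 1 to 7 in OY350, 0 to 5 and 4 to 11 in UK2-32 and 20 to 26 and 1 to 5 in UK3-41. The UK3-41 ranges include genes that passed the count filter only through UK3-41. A strain left with a lone library was assumed to vary like the others. The replicate numbers did not pair the samples (r from -0.26 to 0.39, 3 of 15 pairs over 0.1), and the replicate block gave 2 members higher in AR16. For single genes, 543 alternatives kept the call, 80 lost it and 1 gained it. Unless stated, the cause was not tested. At 28 genes the lower deletion library was under 10 CPM, and depth limits the precision there.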
